A study of Arabidopsis thaliana with 12 samples.

Results

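Rosette leaves of Arabidopsis thaliana that had spent 150 min in a chamber ventilated with 1 to 2 ppm formaldehyde were compared with leaves of plants kept outside the chamber. Each group was 3 arrays from 3 plants, so 6 of the 12 arrays of the series entered this comparison directly, chosen by their labels. Both groups were wild type of the ecotype Columbia, 7 weeks old, grown on agar medium and then in vermiculite and perlite, and acclimated for 72 h under constant light of about 70 µmol/m2/sec at 24 °C. The low formaldehyde plants stood in a chamber of 10 L with a gas flow of 200 ml/min and a humidity of 50 to 60%. The outside plants stayed in the acclimation conditions, in room air with formaldehyde below 0.08 ppm. A further group of 3 plants, called clean air here, had the same chamber, flow and time with air below 0.04 ppm, and its values are given beside the others. The remaining 3 arrays, from plants at 14 to 16 ppm, entered the filter on low values and the estimate of the spread. Because the 3 plants of a condition shared the chamber, formaldehyde, chamber and chamber run cannot be told apart in the comparison with outside plants, and every p-value measures the spread among plants of a single run.

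Formaldehyde is a reactive one-carbon aldehyde that leaves take up from the air. In plant cells it is bound by glutathione and oxidised to formate, which formate dehydrogenase (FDH) turns into carbon dioxide, and it also enters the folate pool. Rosette leaves are at the same time sensitive to air movement, humidity and handling, to which genes of touch, water status, cell wall and growth are known to respond.

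The ATH1 array reads a level per probe set from RNA of the whole leaf, so fewer cells of a type and less RNA per cell cannot be told apart. Levels and differences below are log2 values, a difference of 1 being a change of 2-fold, and the SE is that of the fit. Across probe sets the low formaldehyde arrays correlated with each other at r between 0.964 and 0.983, and the outside arrays at r between 0.957 and 0.975. The clean air arrays did so at r between 0.956 and 0.978. On the second principal component of all 12 arrays, clean air plants 1, 2 and 3 were spread out, at -12.4, 10.1 and 39.7. Outside plants lay there between 31.9 and 53.1 and low formaldehyde plants between -66.0 and -59.4. The spike-in control bioC stood at 9.18 ± 0.08 on low formaldehyde arrays, 7.08 ± 0.26 on clean air arrays and 7.36 ± 0.19 on outside arrays (log2, SD, n = 3 each), while the spike-ins bioB, bioD and cre averaged 7.49, 11.86 and 13.66 on low formaldehyde arrays and 7.38, 12.09 and 13.73 on outside arrays. The mean 3′ minus 5′ signal of the actin, GAPDH and ubiquitin control probe sets, a sign of RNA quality, was 0.27 ± 0.04 on low formaldehyde, -0.0012 ± 0.035 on clean air and -0.05 ± 0.07 on outside arrays (log2, SD, n = 3 each). The second set of control probe sets for the same 3 genes gave 2.67 ± 0.10 on low formaldehyde, 2.42 ± 0.07 on clean air and 2.30 ± 0.04 on outside arrays (log2, SD, n = 3 each). The bioC signal and both 3′ minus 5′ signals moved with the groups, beside every result below, and their part in the results was not tested. Of 34 marker genes of leaf and other cell types, 6 had a named probe set. The mesophyll gene RCA, which encodes Rubisco activase, stood at 14.99, 15.01 and 15.06 in low formaldehyde plants and 15.09, 15.14 and 15.12 in outside plants, and the root hair expansin gene EXPA7 was at 2.11 on all 6, at or close to the lowest value of the arrays. The phloem sugar transporter gene SWEET11, the guard cell factor gene FMA and the trichome gene TRY had differences of 0.27 ± 0.23, -0.02 ± 0.25 and -0.28 ± 0.55 with adjusted p of 0.37, 0.95 and 0.72. AUR1, an Aurora kinase gene of dividing cells, was higher, at 4.53, 4.97 and 4.49 in low formaldehyde plants and 3.64, 3.80 and 3.31 in outside plants. Its outside values were all close to background, so that it was at least 1.58-fold higher (difference 1.08 ± 0.26, adjusted p = 0.0092). AUR1 exceeded 4 on the 3 low formaldehyde arrays alone, so it passed the filter on low values only through the group where it was high. Its adjusted p is therefore given as a value only and is no support for the rise.

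Leaf transcripts differed widely between low formaldehyde and outside plants, in both directions about equally often. Of 13874 probe sets tested, 4919 (35.5%) passed a Benjamini-Hochberg adjusted p of 0.05 in limma, 2491 (18.0%) higher and 2428 (17.5%) lower in low formaldehyde plants. At least 2-fold changes made up 1123 (8.09%) higher and 1211 (8.73%) lower probe sets, and at least 4-fold changes 224 (1.61%) higher and 396 (2.85%) lower ones. Without adjustment, 6355 probe sets (45.8%) had a p below 0.05. The median difference over all tested probe sets was 0.003, and the median size of a called difference was 0.97. All 3 low formaldehyde arrays lay above all 3 outside arrays for 3287 probe sets (23.7%) and below them for 3168 (22.8%). For 100 probe sets the low formaldehyde arrays were all above 4 and the outside arrays all at or below it, and for 123 probe sets the reverse held; values at or below 4 are close to background, so such changes are given as "at least" a fold computed from the level 4. Against clean air plants, low formaldehyde plants had 1639 probe sets higher (11.8%) and 1585 lower (11.4%), 3224 (23.2%) in all. Clean air plants against outside plants had 236 higher (1.70%) and 186 lower (1.34%), 422 (3.04%) in all. These comparisons share arrays and are set side by side as values only. Genes could be named for 7480 of the tested probe sets, which stand for 7389 genes, and 2561 (34.7%) of these were called, 1334 higher (18.1%) and 1227 lower (16.6%). The counts of called members of every list and family below stand against these shares of 18.1% and 16.6%. Families formed by symbol come only from the 1068 tested genes with a symbol of their own, of which 14.4% were higher and 19.5% lower.

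**Figure D1:**
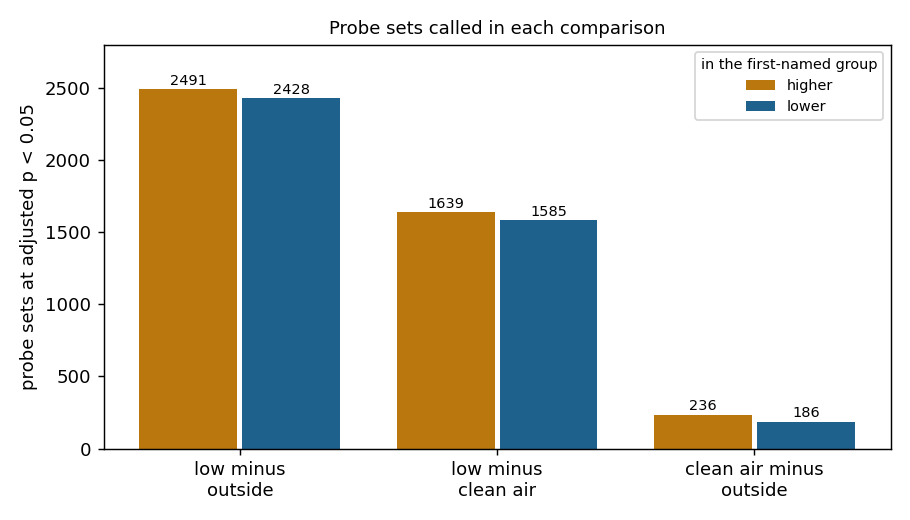
Number of probe sets past an adjusted p of 0.05 in limma, for low formaldehyde minus outside, low formaldehyde minus clean air and clean air minus outside, with a bar each for probe sets higher and lower in the first-named group. The low formaldehyde minus outside comparison had 2491 higher and 2428 lower probe sets, and clean air minus outside 236 and 186.

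Among the named genes, those that rose most held genes of cell wall growth and of development beside several loci that carry no symbol. In Arabidopsis locus names, the digit after AT is the chromosome. XTH16 (AT3G23730), which encodes an enzyme of the xyloglucan endotransglucosylase/hydrolase family that cuts and rejoins wall xyloglucan, had log2 values of 8.32, 7.84 and 7.52 in low formaldehyde plants, 4.76, 4.05 and 2.59 in clean air plants and 2.58, 2.58 and 2.47 in outside plants. Its low formaldehyde values were all above the clean air values, and the outside values were all near background, so that it was at least 14.8-fold higher than outside (difference 5.35 ± 0.47, adjusted p = 7.7e-05) and 4.09 above clean air on the log2 scale (adjusted p = 0.00084). EXO (AT4G08950), EXORDIUM, a gene of cell expansion that brassinosteroids induce, had 11.56, 10.49 and 10.66 in low formaldehyde plants, 8.45, 7.16 and 9.09 in clean air plants and 6.37, 8.78 and 6.71 in outside plants. The low formaldehyde arrays did not overlap either other group, and EXO was 12.3-fold higher than outside (difference 3.62 ± 0.61, adjusted p = 0.0015). ULT1 (AT4G28190), ULTRAPETALA1, which restrains the growth of shoot and floral meristems, had 8.24, 7.52 and 7.52 in low formaldehyde plants, 5.22, 4.43 and 2.99 in clean air plants and 4.31, 3.65 and 4.14 in outside plants. Clean air and outside plants overlapped around 4, all 3 low formaldehyde plants lay above 7, and the difference from outside was 3.73 ± 0.49 (adjusted p = 0.00043), that from clean air 3.55 ± 0.49 (adjusted p = 0.0016). PPR596 (AT1G80270), a mitochondrial pentatricopeptide repeat protein gene, had 8.71, 8.82 and 8.66 in low formaldehyde plants, 7.27, 7.38 and 7.19 in clean air plants and 5.44, 5.08 and 5.59 in outside plants. The 3 groups did not overlap, with clean air between the other two, and PPR596 was 10.3-fold higher in low formaldehyde than outside (adjusted p = 7.7e-05).

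The largest rise was that of AT2G41990, with 9.38, 8.49 and 8.46 in low formaldehyde plants, 5.83, 2.36 and 2.36 in clean air plants and 3.04, 2.36 and 3.97 in outside plants, at least 27.3-fold above outside (difference 5.65 ± 0.85, adjusted p = 0.00081). AT4G21870 had 12.04, 11.49 and 11.93 in low formaldehyde plants, 9.05, 8.50 and 6.16 in clean air plants and 7.52, 8.00 and 8.19 in outside plants, a 15.1-fold rise over outside (adjusted p = 0.00091). In both genes the low formaldehyde plants stood apart, while clean air and outside plants overlapped. The other 6 of the 12 largest rises, AT1G08610, AT3G06530, AT3G10530, AT4G04940, AT2G18900 and AT3G61100, had differences between 3.04 and 3.64. Of these, AT4G04940 had 7.22, 6.78 and 7.37 in low formaldehyde plants, 5.84, 5.68 and 5.55 in clean air plants and 3.80, 3.59 and 3.94 in outside plants, at least 8.72-fold above outside (adjusted p = 8.6e-05). AT3G10530 had 8.75, 8.53 and 8.67 in low formaldehyde plants, 7.40, 6.90 and 6.94 in clean air plants and 5.12, 5.36 and 6.05 in outside plants. AT3G10530 differed from outside by 3.14 ± 0.26 (adjusted p = 7.2e-05). In all 6 the clean air plants lay between the low formaldehyde and the outside plants, overlapping neither. These 6 loci and both loci before them have no symbol in the annotation used.

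The largest falls were larger than the largest rises, and several of the genes concerned varied widely among outside plants. AT1G76960 had 6.65, 3.61 and 4.78 in low formaldehyde plants, 9.60, 9.90 and 11.36 in clean air plants and 10.88, 11.22 and 10.68 in outside plants, 60.3-fold lower in low formaldehyde than outside (difference -5.91 ± 0.86, adjusted p = 0.00071). ZW9 (AT1G58270) had 4.77, 6.23 and 3.12 in low formaldehyde plants, 7.87, 9.05 and 11.04 in clean air plants and 9.07, 10.26 and 10.06 in outside plants, 34.1-fold lower (difference -5.09 ± 0.91, adjusted p = 0.0019). In both genes clean air and outside plants overlapped and the low formaldehyde plants lay below all of them. AT1G52000 had 5.10, 6.64 and 6.36 in low formaldehyde plants, 9.54, 11.00 and 11.18 in clean air plants and 9.45, 11.34 and 10.35 in outside plants. AT1G52000 differed by -4.35 ± 0.75 from outside (adjusted p = 0.0016) and by -4.54 ± 0.75 from clean air (adjusted p = 0.0031). CHI (AT2G43570), annotated as a putative chitinase, an enzyme class that cleaves fungal wall chitin, had 6.22, 4.51 and 5.79 in low formaldehyde plants, 6.82, 5.55 and 7.32 in clean air plants and 10.47, 9.46 and 9.05 in outside plants. Here the low formaldehyde and clean air plants overlapped, and the outside plants lay above both (difference low formaldehyde minus outside -4.15 ± 0.92, adjusted p = 0.0059). SIS (AT5G02020), annotated as a salt induced serine-rich protein, had 3.35, 3.92 and 3.46 in low formaldehyde plants, 3.73, 4.08 and 5.69 in clean air plants and 8.42, 8.37 and 7.65 in outside plants. All 3 low formaldehyde arrays were below 4, SIS was at least 17.7-fold lower than outside (adjusted p = 0.00015), and low formaldehyde and clean air plants overlapped.

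Other loci among the 12 largest falls were AT1G11210, AT1G51090, AT1G67920, AT1G30250, AT4G36010, AT5G05600 and AT1G15010, with differences between -4.89 and -4.11. AT1G51090 had 3.98, 3.76 and 3.52 in low formaldehyde plants, 5.31, 8.32 and 8.81 in clean air plants and 7.56, 10.39 and 7.12 in outside plants and was at least 20.5-fold lower than outside (adjusted p = 0.0056). AT1G67920 had 3.72, 3.72 and 3.95 in low formaldehyde plants, 4.80, 4.93 and 9.45 in clean air plants and 7.61, 9.54 and 7.77 in outside plants and was at least 19.8-fold lower (adjusted p = 0.0082). The low formaldehyde plants of these loci were all below 4, whereas clean air plants spread over several log2 units. AT1G30250 had 5.17, 5.10 and 6.07 in low formaldehyde plants, 7.41, 7.93 and 7.93 in clean air plants and 8.95, 9.39 and 10.32 in outside plants, and its 3 groups did not overlap. The fall of AT1G15010 rested on single plants: its outside values were 7.03, 11.87 and 7.21, and the adjusted p of 0.027 became 0.086 without outside plant 2, 0.062 without low formaldehyde plant 1 and 0.080 without low formaldehyde plant 2.

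**Figure D2:**
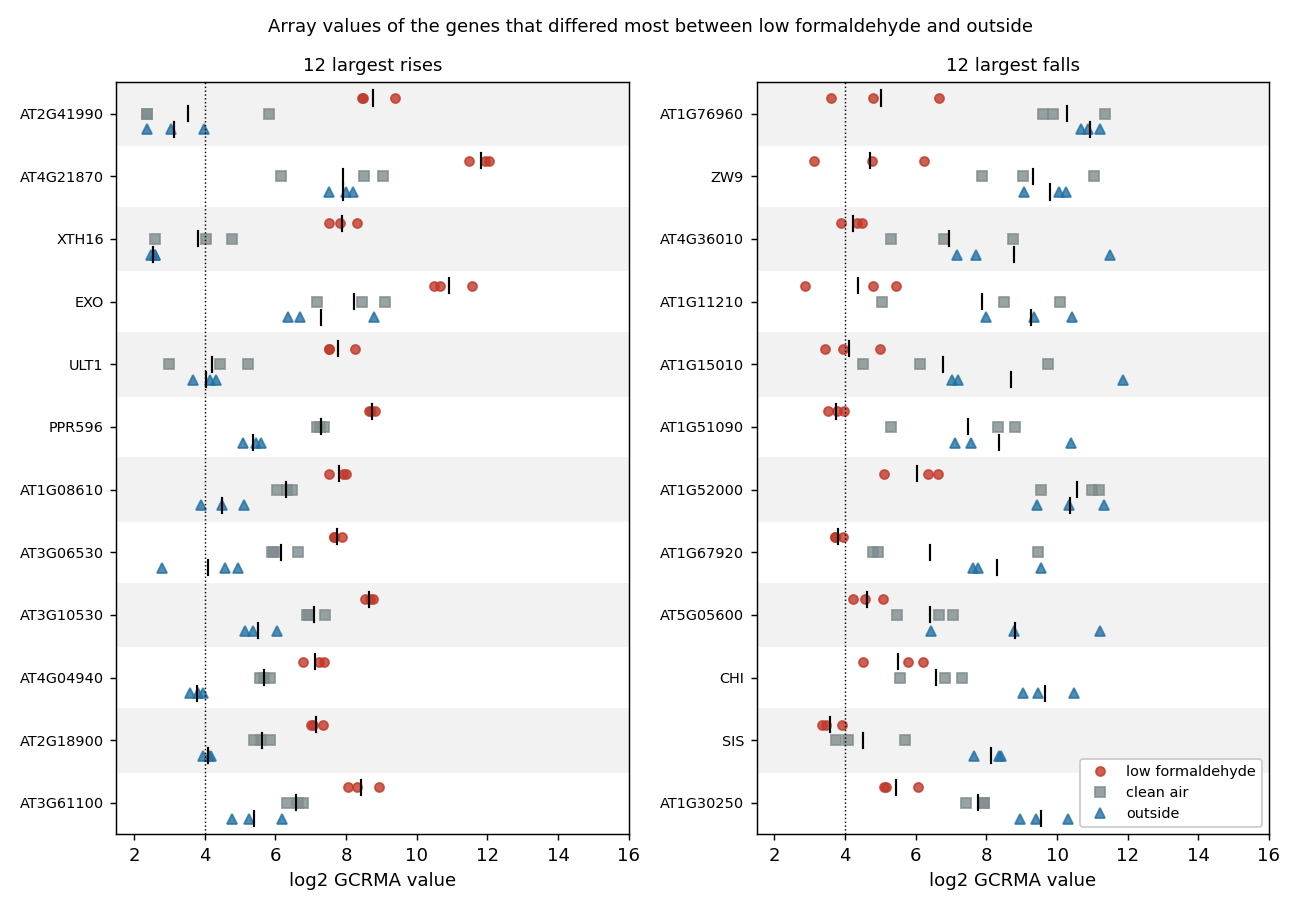
Log2 values on each array for the 12 named genes that rose most (left) and fell most (right) in low formaldehyde against outside plants, ranked after values below 4 were raised to 4. Circles are low formaldehyde, squares clean air and triangles outside plants, black ticks are group means and the dotted line marks 4. XTH16 stands at 7.52 to 8.32 in low formaldehyde plants and at 2.47 to 2.58 in outside plants.

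Genes for RNA polymerases and for the processing of ribosomal and transfer RNA were higher in low formaldehyde plants. The groups below were formed by gene symbol after the values had been seen, so their counts describe and support nothing further. Of 12 genes with a symbol of the nuclear RNA polymerase families, 11 were tested, and 8 were higher and none lower, with a median difference of 0.80 against a median of 0.005 over all 7389 genes, 18.1% of which were higher. NRPA1 and NRPA2, the 2 large subunits of RNA polymerase I, which transcribes ribosomal RNA, had the largest differences of the family. NRPA2 had 8.49, 8.54 and 8.72 in low formaldehyde plants, 7.54, 7.19 and 7.05 in clean air plants and 6.01, 6.12 and 6.39 in outside plants. NRPA2 differed from outside by 2.41 ± 0.21 (adjusted p = 7.7e-05). NRPA1 had 6.15, 5.99 and 6.37 in low formaldehyde plants, 5.44, 5.33 and 5.45 in clean air plants and 4.26, 3.62 and 4.44 in outside plants. NRPA1 differed from outside by 2.06 ± 0.24 (adjusted p = 0.00024). In both, clean air plants lay between low formaldehyde and outside plants without overlap, and the clean air minus outside difference was itself called, with an adjusted p of 0.022 for NRPA2 and 0.019 for NRPA1. NRPC1 and NRPC2, the large subunits of RNA polymerase III, which makes transfer RNA and 5S RNA, had differences of 1.28 ± 0.26 and 1.54 ± 0.28 (adjusted p = 0.0037 and 0.0024). Of the smaller subunits, NRPB12 and NRPB6A had differences of 1.0 ± 0.18 and 0.80 ± 0.11 (adjusted p = 0.0019 and 0.00065). NRPB7 and NRPB6B had 0.55 ± 0.16 and 0.47 ± 0.16 (adjusted p = 0.022 and 0.037), calls that single plants decided: without outside plant 1 the adjusted p was 0.085 and 0.13, without low formaldehyde plant 1 0.062 and 0.12, and without low formaldehyde plant 3 0.071 and 0.093. NRPB6B also missed the threshold without outside plant 2 (adjusted p = 0.052) or clean air plant 2 (0.050). NRPB9B, NRPD7 and NRPE7 were not called, with differences of 0.53, 0.14 and -0.14.

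Among 10 genes of tRNase Z, the exosome and ribosomal RNA processing, all tested, 9 were higher and none lower, with a median difference of 1.24. YAO, a nucleolar WD40 protein gene needed for ribosomal RNA processing, had 7.21, 7.36 and 7.25 in low formaldehyde plants, 6.52, 5.51 and 5.92 in clean air plants and 5.04, 4.93 and 5.32 in outside plants. YAO differed from outside by 2.18 ± 0.28 (adjusted p = 0.00040). TRZ3, a gene of tRNase Z, the enzyme that trims the 3′ end of transfer RNA precursors, had 8.01, 7.40 and 7.99 in low formaldehyde plants and 6.27, 5.94 and 5.96 in outside plants. TRZ3 differed from outside by 1.75 ± 0.21 (adjusted p = 0.00028). TRM82, a subunit of the enzyme that methylates guanosine in transfer RNA, had 7.22, 7.20 and 6.96 in low formaldehyde plants and 5.27, 5.50 and 5.53 in outside plants. TRM82 differed from outside by 1.69 ± 0.20 (adjusted p = 0.00028). Low formaldehyde and outside plants did not overlap in these 3 genes. IMP4, a protein of the small ribosomal subunit processome, RRP41 and RRP41L, subunits of the RNA-degrading exosome, TRZ4 and the DEAD-box helicase genes RH39 and RH20 had differences between 0.66 and 1.38. RH20 lost the call without outside plant 2 (adjusted p = 0.056). TRZ1 was not called (0.51 ± 0.25, adjusted p = 0.13). AT3G05060, the only tested locus of the list for ribosome biogenesis and placed there by locus, had 8.41, 8.77 and 8.71 in low formaldehyde plants, 7.79, 7.27 and 7.46 in clean air plants and 6.57, 6.45 and 6.71 in outside plants. AT3G05060 differed from outside by 2.05 ± 0.18 (adjusted p = 7.7e-05), its 3 groups again without overlap. HLL, which encodes a mitochondrial ribosomal protein, was also higher (1.73 ± 0.34, adjusted p = 0.0035).

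**Figure D3:**
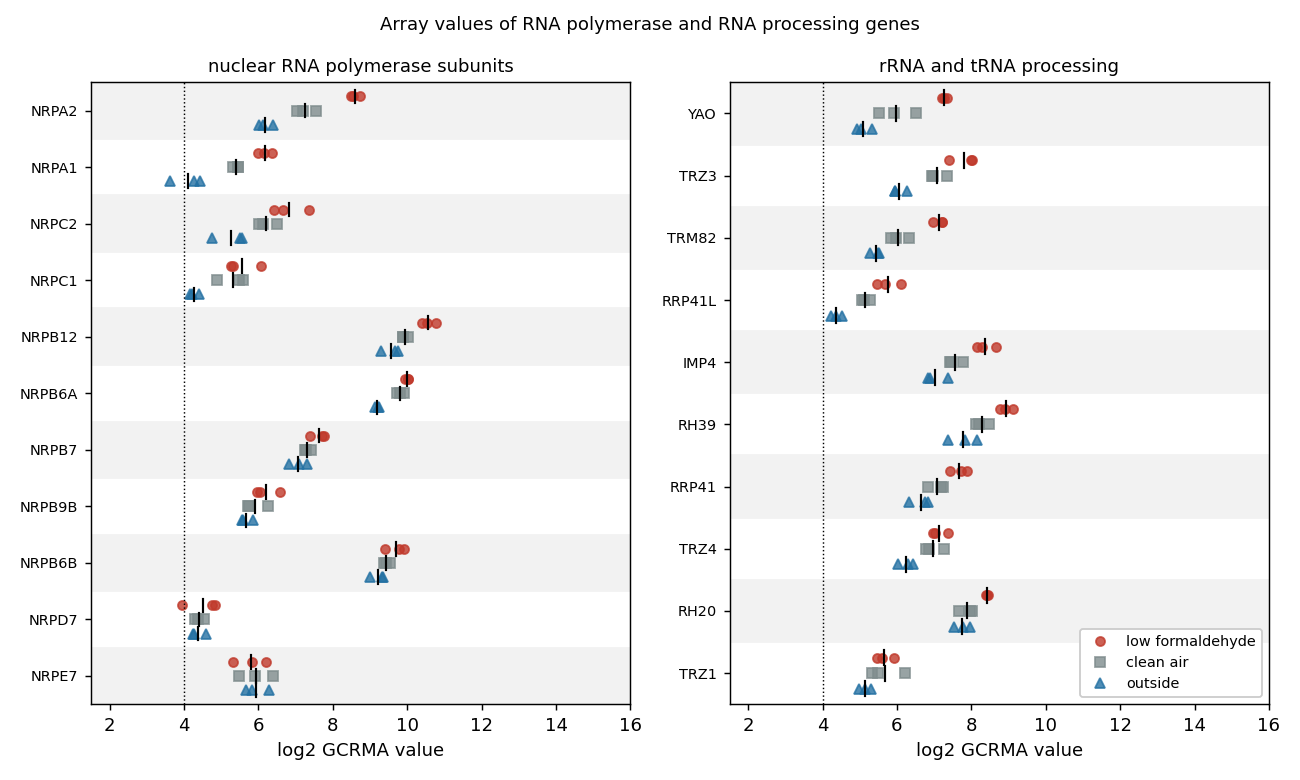
Log2 values on each array for the 11 tested genes of nuclear RNA polymerase subunits (left) and the 10 genes of ribosomal and transfer RNA processing (right), ordered by the low formaldehyde minus outside difference. Circles are low formaldehyde, squares clean air and triangles outside plants, black ticks are group means and the dotted line marks 4. NRPA2 lies at 8.49 to 8.72 in low formaldehyde plants, above 7.05 to 7.54 in clean air and 6.01 to 6.39 in outside plants.

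Of 64 named cell wall genes 41 were tested, and 9 were higher and 8 lower in low formaldehyde plants, with a median difference of -0.03. These counts are near the 18.1% higher and 16.6% lower over all genes. Of 6 tested of 10 genes of xyloglucan endotransglucosylases/hydrolases, XTH16, XTH33 and EXGT-A3 were higher and none lower. EXGT-A3 had 12.36, 12.06 and 12.08 in low formaldehyde plants, 11.56, 11.42 and 10.96 in clean air plants and 10.86, 9.87 and 10.30 in outside plants. EXGT-A3 differed from outside by 1.82 ± 0.24 (adjusted p = 0.00048). XTH33 had 5.75, 5.58 and 4.77 in low formaldehyde plants, 4.30, 3.28 and 2.27 in clean air plants and 3.47, 3.06 and 3.10 in outside plants. XTH33 differed from outside by 2.16 ± 0.50 (adjusted p = 0.0076), and since all outside values were below 4 it was at least 2.58-fold higher. XTH18, XTH19 and XTH32 were not called and overlapped between the groups. Expansins loosen walls without cutting them, and 11 of 18 were tested, 2 higher and 2 lower, counts close to the shares over all genes. EXLA2 had 5.24, 5.75 and 5.04 in low formaldehyde plants and 3.50, 4.08 and 3.19 in outside plants. EXLA2 differed from outside by 1.75 ± 0.32 (adjusted p = 0.0021). EXPA16 went the other way, with 4.57, 4.73 and 4.93 in low formaldehyde plants, 3.88, 4.08 and 4.15 in clean air plants and 7.29, 7.01 and 8.05 in outside plants and a difference of -2.71 ± 0.30 (adjusted p = 0.00021), the low formaldehyde plants lying between the lower clean air and the higher outside plants. The calls of EXPA9 (1.51 ± 0.44, adjusted p = 0.022) and EXLB1 (-1.08 ± 0.36, adjusted p = 0.039) were decided by single plants. EXPA9 missed the threshold without low formaldehyde plant 2 or 3 or outside plant 2 or 3 (adjusted p between 0.052 and 0.072), and EXLB1 without any single low formaldehyde plant, without outside plant 1 or 2, without clean air plant 2 and without high formaldehyde plant 2 or 3 (adjusted p between 0.052 and 0.13).

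The trichome birefringence-like proteins, some of which add acetyl groups to wall polysaccharides, had 22 named genes, of which 13 were tested, 1 higher and 4 lower. TBL45 had 12.06, 11.79 and 11.83 in low formaldehyde plants, 10.91, 10.08 and 8.75 in clean air plants and 9.75, 9.81 and 9.76 in outside plants. TBL45 differed from outside by 2.12 ± 0.43 (adjusted p = 0.0039). TBL37 had 6.84, 7.03 and 6.98 in low formaldehyde plants and 8.63, 8.41 and 8.57 in outside plants and TBL38 7.56, 7.29 and 7.62 in low formaldehyde plants and 8.14, 8.65 and 8.45 in outside plants, differences of -1.58 ± 0.13 and -0.92 ± 0.24 (adjusted p = 7.2e-05 and 0.013). TBL26 had 5.26, 5.49 and 8.03 in low formaldehyde plants and 7.65, 9.26 and 9.76 in outside plants. TBL26 differed from outside by -2.63 ± 0.68 (adjusted p = 0.013), and missed the threshold without low formaldehyde plant 2 (adjusted p = 0.051). TBL16, with a difference of -0.46 ± 0.16 (adjusted p = 0.041), missed it in 9 of the 12 fits without 1 array, and the family's lower count of 4 was 2 without low formaldehyde plant 2. Its higher count was 2 without outside plant 1, clean air plant 1 or 3 or high formaldehyde plant 2. Of the cellulose synthase-like genes of the wall list, CSLA03, a glucomannan synthase gene, and ATCSLC08 were higher (1.80 ± 0.29 and 0.84 ± 0.17, adjusted p = 0.0012 and 0.0034). The other tested ones, CSLC04, CSLC12, CSLC5 and CSLC6, were not called, with differences of 0.44, 0.31, -0.03 and -0.28. The pectin methylesterase genes ATPMEPCRB and PMEPCRF were lower (-1.64 ± 0.26 and -1.13 ± 0.21, adjusted p = 0.0011 and 0.0026), and PME61, the other tested one, was not called (-0.61 ± 0.49, adjusted p = 0.36). The lower count of the whole wall list, 8, was between 5 and 9 in the fits without 1 array, its lowest value without low formaldehyde plant 2. THE1, the receptor kinase THESEUS1 that senses wall integrity, had 9.82, 9.61 and 10.19 in low formaldehyde plants, 9.12, 8.60 and 8.06 in clean air plants and 7.74, 7.10 and 7.51 in outside plants. THE1 differed from outside by 2.43 ± 0.28 (adjusted p = 0.00026), with no overlap between low formaldehyde and outside plants. Of 6 tested tubulin and actin genes of 7, ACT11 had 8.33, 8.50 and 8.73 in low formaldehyde plants and 6.40, 5.92 and 6.48 in outside plants and TUB7 10.56, 10.41 and 9.89 in low formaldehyde plants and 9.36, 8.83 and 8.93 in outside plants, differences of 2.25 ± 0.40 and 1.25 ± 0.28 (adjusted p = 0.0019 and 0.0068), and the other 4 were not called. Without low formaldehyde plant 3 the higher count of this family was 4.

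Proteins of cold and dehydration had 12 named genes, 8 of them tested, of which 4 were lower in low formaldehyde plants and none higher, with a median difference of -1.54. COR27, a cold-regulated gene tied to the clock, had 5.99, 5.43 and 3.53 in low formaldehyde plants, 6.23, 8.85 and 7.64 in clean air plants and 8.32, 7.48 and 8.17 in outside plants. COR27 differed from outside by -3.01 ± 0.69 (adjusted p = 0.0072). COR15B and COR15A encode proteins that protect chloroplast membranes in the cold. COR15B had 9.12, 8.36 and 6.05 in low formaldehyde plants, 8.91, 12.03 and 11.05 in clean air plants and 11.95, 12.06 and 9.56 in outside plants, and COR15A had 10.42, 9.85 and 9.55 in low formaldehyde plants, 11.66, 14.21 and 13.80 in clean air plants and 12.79, 13.21 and 10.34 in outside plants. The outside values of both spread over more than 2 log2 units, and COR15A overlapped between low formaldehyde and outside plants. The 2 genes are close relatives, and whether their probes read each other was not tested. Their differences were -3.35 ± 0.94 (adjusted p = 0.019) and -2.17 ± 0.77 (adjusted p = 0.047), and that of the dehydrin gene COR47 was -1.89 ± 0.56 (adjusted p = 0.024). Only the call of COR27 held in every fit without 1 array. COR15B missed the threshold without outside plant 1 (0.064), outside plant 2 (0.062) or low formaldehyde plant 3 (adjusted p = 0.067). COR47 missed it without outside plant 2 (0.083), low formaldehyde plant 2 (0.064) or low formaldehyde plant 3 (adjusted p = 0.081), and COR15A in 9 of the 12 fits. The count of 4 was therefore 1 without outside plant 2 and without low formaldehyde plant 3, and 2 without outside plant 1 and without low formaldehyde plant 2. LTI30, another dehydrin gene, had 4.83, 5.30 and 5.46 in low formaldehyde plants, 6.42, 7.74 and 7.91 in clean air plants and 4.86, 8.86 and 5.47 in outside plants and was not called (adjusted p = 0.28).

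Lectins, which bind sugar chains, fell together: 3 of the 5 named genes were tested and all 3 were lower. JAL23, a jacalin-related lectin gene, had 2.58, 3.89 and 3.27 in low formaldehyde plants, 8.30, 8.81 and 10.31 in clean air plants and 7.13, 9.02 and 6.70 in outside plants. Every low formaldehyde plant was below 4, at least 12.3-fold lower than outside (difference -4.38 ± 0.72, adjusted p = 0.0013), and the difference from clean air was -5.90 ± 0.72 (adjusted p = 0.0010). JAL34 had 4.61, 5.0 and 4.15 in low formaldehyde plants, 6.27, 8.21 and 7.21 in clean air plants and 7.26, 7.55 and 7.45 in outside plants. JAL34 differed from outside by -2.83 ± 0.43 (adjusted p = 0.00085). EULS3, which encodes the Euonymus lectin-type protein of Arabidopsis, had 6.43, 6.20 and 5.84 in low formaldehyde plants, 8.26, 8.61 and 9.39 in clean air plants and 8.57, 9.85 and 8.37 in outside plants. EULS3 differed from outside by -2.77 ± 0.42 (adjusted p = 0.00079). In JAL34 and EULS3 too, low formaldehyde plants lay below all clean air and outside plants, which overlapped each other.

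Enzymes that handle formaldehyde and one-carbon units were measured for 10 named genes, and 3 were lower, against 16.6% of all genes, and none higher, with a median difference of -0.44. The lower count was 2 in 7 of the 12 fits without 1 array and 4 without clean air plant 1. FDH had 12.53, 12.27 and 10.80 in low formaldehyde plants, 11.87, 12.99 and 13.08 in clean air plants and 13.11, 12.63 and 12.40 in outside plants, so that low formaldehyde and outside plants overlapped, and the difference of -0.85 ± 0.43 was not called (adjusted p = 0.15). The count of higher members was 1 without outside plant 3. The gene for 5-FCL, 5-formyltetrahydrofolate cycloligase, which returns stored formyl groups to the folate pool, had 7.81, 7.59 and 7.11 in low formaldehyde plants, 8.12, 8.21 and 8.45 in clean air plants and 8.57, 8.42 and 8.64 in outside plants. 5-FCL differed from outside by -1.04 ± 0.19 (adjusted p = 0.0020). AT3G12290, placed in the list by locus, had 10.85, 10.44 and 10.54 in low formaldehyde plants and 11.51, 11.19 and 11.20 in outside plants. AT3G12290 differed from outside by -0.69 ± 0.14 (adjusted p = 0.0034). Low formaldehyde and outside plants did not overlap for either. ALDH3F1, an aldehyde dehydrogenase gene, had a difference of -0.51 ± 0.17 (adjusted p = 0.043) and missed the threshold in 9 of the 12 fits without 1 array, with an adjusted p of up to 0.14 without low formaldehyde plant 3. In the wider aldehyde dehydrogenase family, which oxidises aldehydes to acids, 5 of 8 tested genes were lower and none higher, with a median difference of -0.61. ALDH11A3, the gene of non-phosphorylating glyceraldehyde-3-phosphate dehydrogenase, had 9.88, 10.35 and 10.37 in low formaldehyde plants, 11.30, 11.28 and 11.76 in clean air plants and 11.40, 11.67 and 11.49 in outside plants. ALDH11A3 differed from outside by -1.32 ± 0.25 (adjusted p = 0.0024). The betaine aldehyde dehydrogenase genes ALDH10A8 and ALDH10A9 had differences of -0.67 ± 0.17 and -0.79 ± 0.16 (adjusted p = 0.011 and 0.0038). ALDH22A1 (-0.55 ± 0.17, adjusted p = 0.027) missed the threshold without low formaldehyde plant 1 (adjusted p = 0.084) or 3 (0.057) and without outside plant 1 (0.079) or 3 (0.059), and the count of 5 was 3 without outside plant 1 and without low formaldehyde plant 3. ALDH2C4, ALDH7B4 and ALDH6B2 were not called, with differences of -0.38, -1.11 and -0.51.

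Among genes of sulfur and redox metabolism, all 4 tested B-type methionine sulfoxide reductase genes, whose enzymes repair oxidised methionine, were lower, with a median difference of -1.78. MSRB5 had 8.72, 9.15 and 9.20 in low formaldehyde plants, 10.45, 9.75 and 11.20 in clean air plants and 10.50, 11.28 and 10.24 in outside plants. MSRB5 differed from outside by -1.65 ± 0.35 (adjusted p = 0.0045). MSRB6 had 8.00, 8.86 and 7.41 in low formaldehyde plants, 8.95, 9.72 and 8.85 in clean air plants and 10.15, 9.84 and 9.98 in outside plants. MSRB6 differed from outside by -1.90 ± 0.49 (adjusted p = 0.013). MSRB9 had 3.89, 3.59 and 4.30 in low formaldehyde plants, 4.59, 3.63 and 2.90 in clean air plants and 6.36, 7.65 and 6.58 in outside plants. MSRB9 differed from outside by -2.94 ± 0.71 (adjusted p = 0.0093), and MSRB3 by -0.99 ± 0.17 (adjusted p = 0.0017). No gene of the 4 overlapped between low formaldehyde and outside plants, but in MSRB6 and MSRB9 low formaldehyde and clean air plants did. For MSRB9 the low formaldehyde minus clean air difference was 0.22 ± 0.71 (adjusted p = 0.86). Only 1 of the 4 genes was called against clean air plants. In sulfate assimilation 3 of 4 tested genes were lower, and 2 under scaling by spike-ins. The ATP sulfurylase genes APS3 and APS4, for the enzyme that activates sulfate, had differences of -1.42 ± 0.21 and -1.31 ± 0.19 (adjusted p = 0.00075 and 0.00066), and SIR, for sulfite reductase, -0.52 ± 0.12 (adjusted p = 0.0069). SIR lost its call when arrays were scaled by the spike-ins (adjusted p = 0.082). APS4 had 9.80, 9.37 and 9.29 in low formaldehyde plants, 10.07, 10.71 and 10.61 in clean air plants and 10.95, 10.63 and 10.82 in outside plants. GR1, for glutathione reductase, was not called (-0.25 ± 0.20, adjusted p = 0.34). SAL2, a phosphatase gene of the family that removes a phosphate from phosphoadenosine phosphate, a by-product of sulfate use, had 4.52, 3.24 and 4.04 in low formaldehyde plants, 5.44, 4.15 and 3.71 in clean air plants and 7.41, 7.41 and 7.56 in outside plants (difference -3.53 ± 0.67, adjusted p = 0.0026), its clean air plants overlapping the low formaldehyde plants. Tau and phi glutathione transferases, which join glutathione to reactive compounds, had 13 named genes, 6 tested, 1 higher and 2 lower, against 18.1% and 16.6% of all genes. GSTF4 had 5.57, 6.02 and 5.51 in low formaldehyde plants, 4.00, 3.86 and 3.47 in clean air plants and 4.39, 4.39 and 2.83 in outside plants. GSTF4 differed from outside by 1.83 ± 0.39 (adjusted p = 0.0049). Without low formaldehyde plant 1 the higher count was 2. GSTU16 and GSTU18 were lower, with differences of -1.54 ± 0.27 and -1.07 ± 0.28 (adjusted p = 0.0017 and 0.012). CCS, the copper chaperone gene of superoxide dismutase, had 10.38, 10.36 and 11.44 in low formaldehyde plants, 9.22, 8.04 and 7.47 in clean air plants and 8.44, 9.54 and 7.64 in outside plants and was higher (2.19 ± 0.54, adjusted p = 0.0098).

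The 2 tested genes of salicylate and immunity were both lower, against 16.6% of all genes. GRX480, a glutaredoxin gene that salicylate induces, had 2.82, 2.60 and 4.31 in low formaldehyde plants, 4.11, 3.12 and 6.65 in clean air plants and 5.65, 7.76 and 7.16 in outside plants. GRX480 differed from outside by -3.61 ± 0.91 (adjusted p = 0.011). SAG101, a partner of the immune regulator EDS1, had a difference of -0.88 ± 0.25 (adjusted p = 0.018), a call lost without outside plant 1 (0.070) and without low formaldehyde plant 2 (0.072) or 3 (adjusted p = 0.055). None of 3 tested jasmonate genes was called: the defensin gene PDF1.2 had 4.43, 5.74 and 4.37 in low formaldehyde plants, 6.67, 5.86 and 8.11 in clean air plants and 8.21, 6.90 and 5.95 in outside plants and overlapped between clean air and outside plants (low formaldehyde minus outside -2.17 ± 1.21, adjusted p = 0.19), PDF1.2b had a difference of -1.62 ± 1.32 (adjusted p = 0.37) and JMT, for jasmonate methyltransferase, -0.58 ± 0.47 (adjusted p = 0.36). Of 5 tested WRKY genes, which encode transcription factors of stress and senescence, 3 were lower. WRKY6 had 6.01, 6.03 and 6.52 in low formaldehyde plants, 5.72, 6.07 and 6.19 in clean air plants and 8.18, 7.17 and 8.42 in outside plants, and WRKY47 had 6.43, 5.77 and 6.49 in low formaldehyde plants, 5.84, 6.10 and 5.17 in clean air plants and 7.50, 7.78 and 8.33 in outside plants. Both were lower in low formaldehyde and in clean air plants than in every outside plant, with differences of -1.74 ± 0.33 and -1.64 ± 0.29 for low formaldehyde minus outside (adjusted p = 0.0026 and 0.0019). The call of WRKY53 (-1.81 ± 0.57, adjusted p = 0.030) was lost without outside plant 1 (0.11) or 3 (0.060) and without low formaldehyde plant 1 (0.084) or 2 (adjusted p = 0.099). Of 8 genes of glutamate receptor-like channels, which carry calcium signals, 6 were tested and 3 were lower. GLR2.8 had 2.12, 2.11 and 2.11 in low formaldehyde plants, 2.11, 2.17 and 2.11 in clean air plants and 5.86, 5.16 and 4.19 in outside plants. GLR2.8 differed from outside by -2.96 ± 0.35 (adjusted p = 0.00027) and was at least 2.1-fold lower, the chamber plants of both kinds lying at or near the lowest value of the arrays. Among low formaldehyde, clean air and outside plants, GLR2.8 exceeded 4 in the outside plants alone, where it was high. The adjusted p of GLR2.8 is therefore given as a value only and is no support for the fall. GLR2.7 had a difference of -1.16 ± 0.19 (adjusted p = 0.0014), and GLR1.4 -1.64 ± 0.45 (adjusted p = 0.016), lost without outside plant 1 (0.060) or 3 (0.060) and without low formaldehyde plant 2 (adjusted p = 0.065). RING1, an E3 ubiquitin ligase gene of defence-related cell death, had 10.85, 10.31 and 10.44 in low formaldehyde plants and 13.04, 12.16 and 12.55 in outside plants. RING1 differed from outside by -2.05 ± 0.23 (adjusted p = 0.00021).

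The touch and rapid stress list had 12 named genes, 10 tested, with 2 higher and 3 lower, against 18.1% and 16.6% of all genes, the lower ones being WRKY6, WRKY53 and CML41. CML30, a calmodulin-like gene, had 9.95, 9.48 and 9.15 in low formaldehyde plants, 8.00, 7.76 and 6.95 in clean air plants and 7.82, 6.64 and 7.58 in outside plants. CML30 differed from outside by 2.18 ± 0.35 (adjusted p = 0.0012). Its low formaldehyde plants lay above all clean air and outside plants. CML23 was higher (1.22 ± 0.34, adjusted p = 0.018) but missed the threshold without outside plant 2 (0.056) or 3 (0.054) and without low formaldehyde plant 3 (adjusted p = 0.066). CML41 had 3.40, 3.19 and 3.28 in low formaldehyde plants and 4.98, 5.54 and 7.80 in outside plants, at least 4.31-fold lower (adjusted p = 0.043), and missed the threshold in 7 of the 12 fits without 1 array, with an adjusted p of up to 0.15 without outside plant 3. The higher count of this list lay between 1 and 3 and the lower count between 1 and 4 in those fits. It was 1 higher without outside plant 2 or 3 or low formaldehyde plant 3 and 3 higher without low formaldehyde plant 2 or clean air plant 1 or 3, and 1 lower without outside plant 3 or low formaldehyde plant 1 or 2. CML37, CML38 and CML42, the zinc finger gene STZ and the ubiquitin ligase gene PUB23 were not called, with differences between -2.47 and 0.87. In the unfolded protein response of the endoplasmic reticulum 3 of 4 tested genes were lower. BZIP28 and BZIP60 encode its membrane-bound transcription factors. BZIP28 had 8.12, 7.88 and 7.71 in low formaldehyde plants and 8.75, 9.28 and 8.71 in outside plants, and BZIP60 had 9.51, 8.95 and 9.74 in low formaldehyde plants and 10.76, 10.20 and 10.23 in outside plants. Neither gene overlapped between the groups, and the differences were -1.01 ± 0.19 (adjusted p = 0.0025) and -1.0 ± 0.27 (adjusted p = 0.017), and that of DER1, which helps to export misfolded proteins, was -0.78 ± 0.14 (adjusted p = 0.0022). BZIP60 lost its call without outside plant 1 (0.064) or low formaldehyde plant 2 (adjusted p = 0.066), while ATERDJ3B was not called (-0.31 ± 0.24). Against clean air plants none of the 4 was called. BZIP28, BZIP60 and DER1 differed from clean air by -0.53, -0.55 and -0.31 (adjusted p = 0.064, 0.17 and 0.14). Their clean air minus outside differences, -0.48, -0.45 and -0.47, were not called either.

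UDP-glycosyltransferases, which attach sugars to hormones and other small molecules, had 50 named genes, 26 tested, 1 higher and 9 lower, against 18.1% and 16.6% of all genes, with a median difference of -0.41. Of the genes with a symbol of their own, 14.4% were higher and 19.5% lower. UGT87A2 had 8.54, 7.96 and 8.55 in low formaldehyde plants, 8.68, 8.62 and 8.23 in clean air plants and 10.10, 9.79 and 10.56 in outside plants. UGT87A2 differed from outside by -1.80 ± 0.25 (adjusted p = 0.00052), and clean air plants overlapped low formaldehyde plants (difference -0.16 ± 0.25, adjusted p = 0.67). UGT71B1 had 6.72, 6.89 and 7.35 in low formaldehyde plants, 8.27, 8.47 and 8.43 in clean air plants and 8.05, 8.48 and 9.09 in outside plants. UGT71B1 differed from outside by -1.55 ± 0.25 (adjusted p = 0.0012), and here clean air plants overlapped outside plants. UGT71B6, whose enzyme glucosylates abscisic acid, had a difference of -1.65 ± 0.36 (adjusted p = 0.0055). The lower calls of UGT72B3 (-0.88, adjusted p = 0.047) and UGT84A3 (-0.89, adjusted p = 0.018) were lost in 7 and 2 of the 12 fits without 1 array. In those 12 fits the lower count was between 8 and 10. UGT74D1, whose enzyme glucosylates auxins, was the 1 higher member, with 9.98, 10.37 and 10.53 in low formaldehyde plants, 10.20, 10.18 and 10.09 in clean air plants and 8.77, 8.47 and 9.10 in outside plants. UGT74D1 differed from outside by 1.51 ± 0.19 (adjusted p = 0.00039) and no difference was called from clean air (0.14 ± 0.19, adjusted p = 0.65). The glucosinolate synthesis genes BCAT4 and UGT74B1 were lower. BCAT4, for the aminotransferase that starts the lengthening of methionine, had 9.34, 9.99 and 10.64 in low formaldehyde plants, 11.62, 11.92 and 12.55 in clean air plants and 12.23, 12.74 and 11.75 in outside plants. BCAT4 differed from outside by -2.25 ± 0.38 (adjusted p = 0.0015). UGT74B1, for the glucosyltransferase of the glucosinolate core, had 9.02, 9.74 and 9.89 in low formaldehyde plants, 11.12, 11.36 and 11.11 in clean air plants and 10.66, 10.84 and 10.85 in outside plants. UGT74B1 differed from outside by -1.23 ± 0.27 (adjusted p = 0.0059). For both genes the low formaldehyde plants lay below all clean air and outside plants. Cytochromes P450 had 24 named genes, 13 tested, none higher and 5 lower. The shares were again 18.1% and 16.6% of all genes, and 14.4% and 19.5% of those with a symbol of their own. Apart from CYP78A9 and CYP84A4, the tested genes were all of the CYP71B subfamily, as were the 5 lower ones. The uncalled members had differences between -0.98 and 0.82. CYP71B24 had 6.25, 6.54 and 8.22 in low formaldehyde plants, 8.90, 8.99 and 9.32 in clean air plants and 9.74, 9.18 and 9.69 in outside plants. CYP71B24 differed from outside by -2.54 ± 0.63 (adjusted p = 0.011), and CYP71B23, CYP71B5, CYP71B6 and CYP71B28 had differences between -2.01 and -0.69. The flavonol glycosyltransferase genes UGT78D1 and UGT78D2, the 2 tested of 5 genes of phenylpropanoids, were not called (adjusted p = 0.12 and 0.13), although 1 was without outside plant 1 and without low formaldehyde plant 3. Of 20 named beta-glucosidase genes 7 were tested, BGLU33 being higher (1.46 ± 0.36, adjusted p = 0.0094, and 0.051 in a fit of the 6 arrays alone) and BGLU44 lower (-2.37 ± 0.50, adjusted p = 0.0045). Of 23 serine carboxypeptidase-like genes 9 were tested and 3 were lower, against 16.6% of all genes and 19.5% of those with a symbol of their own. The largest fall was that of scpl35, with 7.05, 7.53 and 6.77 in low formaldehyde plants, 9.42, 9.20 and 9.37 in clean air plants and 9.38, 10.08 and 9.39 in outside plants. scpl35 differed from outside by -2.50 ± 0.25 (adjusted p = 0.00013). Another of the 3, scpl20, lost its call without outside plant 2 (0.11) or 3 (adjusted p = 0.092). It also lost it without any single low formaldehyde plant (adjusted p between 0.055 and 0.099).

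Of the nuclear genes of photosynthesis with a named probe set, none of 6 tested genes of light harvesting and the photosystems was called. The antenna gene LHCB4.2 had 15.29, 15.22 and 14.92 in low formaldehyde plants and 15.26, 15.26 and 15.00 in outside plants, and LHCB4.1 had 14.98, 14.73 and 14.76 in low formaldehyde plants and 14.83, 14.94 and 14.60 in outside plants, both overlapping between the groups. Their differences were -0.03 ± 0.11 and 0.03 ± 0.11. Of 6 tested genes of the Calvin cycle and photorespiration, AT1G80380, placed there by locus, was higher (0.57 ± 0.17, adjusted p = 0.022), a call lost without outside plant 1 (0.084) or low formaldehyde plant 3 (adjusted p = 0.077), and RCA, SBPASE, PRK, HPR and AT1G11860 had differences between -0.21 and 0.12. Of 15 plastid ribosomal protein genes 14 were tested, with rps4, rps2 and rpl32 higher (1.51 ± 0.18, 1.51 ± 0.30 and 0.69 ± 0.14, adjusted p = 0.00026, 0.0036 and 0.0033), a count close to the 18.1% over all genes. rps4 had 12.99, 13.52 and 13.37 in low formaldehyde plants, 12.44, 12.22 and 12.00 in clean air plants and 12.08, 11.51 and 11.76 in outside plants, the low formaldehyde plants above the other 2 groups given. Of 10 genes of the plastid NADH dehydrogenase-like complex, which returns electrons to the photosynthetic chain, 9 were tested and ndhD, ndhJ, ndhK and ndhI were higher, ndhJ with 10.62, 10.90 and 10.93 in low formaldehyde plants and 9.98, 9.70 and 10.06 in outside plants and a difference of 0.90 ± 0.15 (adjusted p = 0.0015). The call of ndhI (0.52 ± 0.16, adjusted p = 0.029) was lost without outside plant 2 (0.074) and without low formaldehyde plant 2 (0.090) or 3 (adjusted p = 0.079). The median difference of the 9 genes was 0.52 from outside and 0.13 from clean air plants, and that of clean air minus outside was 0.44. None of the 9 was called in either comparison with clean air plants. The 20 tested plastid photosystem genes had 4 higher and 3 lower, counts close to the 18.1% and 16.6% over all genes. The higher ones, psaI, psbI, psaB and psbJ, had differences between 0.30 and 1.03. The lower ones were psbA, for the D1 protein of the photosystem II reaction centre, psbB and psbT, with differences of -0.54 ± 0.17, -1.07 ± 0.21 and -1.06 ± 0.21 (adjusted p = 0.029, 0.0032 and 0.0032). The call of psbA was lost without outside plant 2 (0.10) and without low formaldehyde plant 2 (0.091) or 3 (adjusted p = 0.099). Among the higher ones, psbI lost its call in the same fits (adjusted p between 0.070 and 0.089), and psbJ in 7 of the 12 fits without 1 array. The higher count was between 2 and 5 in the fits without 1 array, the lowest without low formaldehyde plant 2 or 3.

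Carbon storage and transport had 1 gene lower among 6 tested, and 2 without outside plant 3. PWD, for phosphoglucan, water dikinase, which primes starch for breakdown, had 9.29, 9.30 and 8.66 in low formaldehyde plants, 9.75, 11.17 and 10.49 in clean air plants and 10.48, 10.23 and 10.78 in outside plants. PWD differed from outside by -1.41 ± 0.32 (adjusted p = 0.0064). The sugar transporter gene SWEET13 had 3.33, 3.97 and 4.19 in low formaldehyde plants, 7.62, 7.62 and 9.21 in clean air plants and 5.16, 7.58 and 3.23 in outside plants, clean air plants lying above all low formaldehyde and outside plants, which overlapped each other. It was not called against outside (adjusted p = 0.20) while it was lower than in clean air (-4.32 ± 0.85, adjusted p = 0.0065). APL3, for a large subunit of the starch synthesis enzyme ADP-glucose pyrophosphorylase, had 7.99, 7.89 and 8.17 in low formaldehyde plants, 9.02, 8.68 and 9.31 in clean air plants and 7.68, 7.81 and 7.87 in outside plants; it was lower than in clean air (-0.98 ± 0.17, adjusted p = 0.0040), and not called against outside (0.23 ± 0.17, adjusted p = 0.31). The clock gene GI had 8.94, 7.95 and 6.13 in low formaldehyde plants, 7.67, 9.37 and 8.84 in clean air plants and 9.53, 8.25 and 6.56 in outside plants, a spread of more than 2 log2 units in the low formaldehyde and outside groups, and was not called (adjusted p = 0.70). The 3 tested of 11 auxin response genes were not called either, among them IAA29 with -1.10 ± 0.94 and IAA18 with 0.42 ± 0.19 (adjusted p = 0.39 and 0.11), although 1 was called higher without outside plant 2. Of 3 gibberellin receptor genes GID1B was lower, with 4.91, 3.61 and 3.43 in low formaldehyde plants, 4.24, 5.94 and 6.27 in clean air plants and 6.38, 7.71 and 7.79 in outside plants. GID1B differed from outside by -3.31 ± 0.57 (adjusted p = 0.0016), and GID1A and GID1C were not called (-0.77 ± 0.31 and -0.94 ± 0.45), 1 of them being called lower without clean air plant 1. WES1, for an enzyme that joins auxin and salicylate to amino acids, had a difference of -2.77 ± 0.63 (adjusted p = 0.0069), and the cell cycle F-box gene SKP2A -2.22 ± 0.50 (adjusted p = 0.0067).

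PYE, which encodes POPEYE, a factor of the iron deficiency response, had 7.78, 7.64 and 9.58 in low formaldehyde plants, 8.04, 7.06 and 7.41 in clean air plants and 5.93, 6.30 and 7.17 in outside plants. PYE differed from outside by 1.86 ± 0.49 (adjusted p = 0.014). It was the 1 higher of 2 tested iron genes, and missed the threshold without outside plant 1 (adjusted p = 0.052). AT1G47400, the other tested locus, was not called (2.51 ± 1.06, adjusted p = 0.087), but was in the fit without low formaldehyde plant 1. AT5G61590, whose synonym DEWAX stands for a repressor of wax synthesis, had 12.12, 11.05 and 11.26 in low formaldehyde plants, 11.65, 11.71 and 11.21 in clean air plants and 9.99, 9.78 and 10.09 in outside plants, higher in both chamber groups, by 1.52 ± 0.26 in low formaldehyde (adjusted p = 0.0016) and 1.57 ± 0.26 in clean air (adjusted p = 0.014). NDB2, for an alternative NADH dehydrogenase of mitochondria, was lower (-1.57 ± 0.44, adjusted p = 0.018), a call lost without outside plant 2 (0.064) or low formaldehyde plant 1 (adjusted p = 0.063). AT4G17260, the single tested locus of the low oxygen list, and AQI, an aquaporin interactor and the single gene of the aquaporin list, were lower, with differences of -0.66 ± 0.17 and -0.77 ± 0.14 (adjusted p = 0.012 and 0.0020). Lists for abscisic acid signalling, MATE transporters, cytosolic ribosomal proteins and sugar starvation had no gene with a named probe set, and the 1 named heat shock gene was not above the filter on low values.

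**Figure D4:**
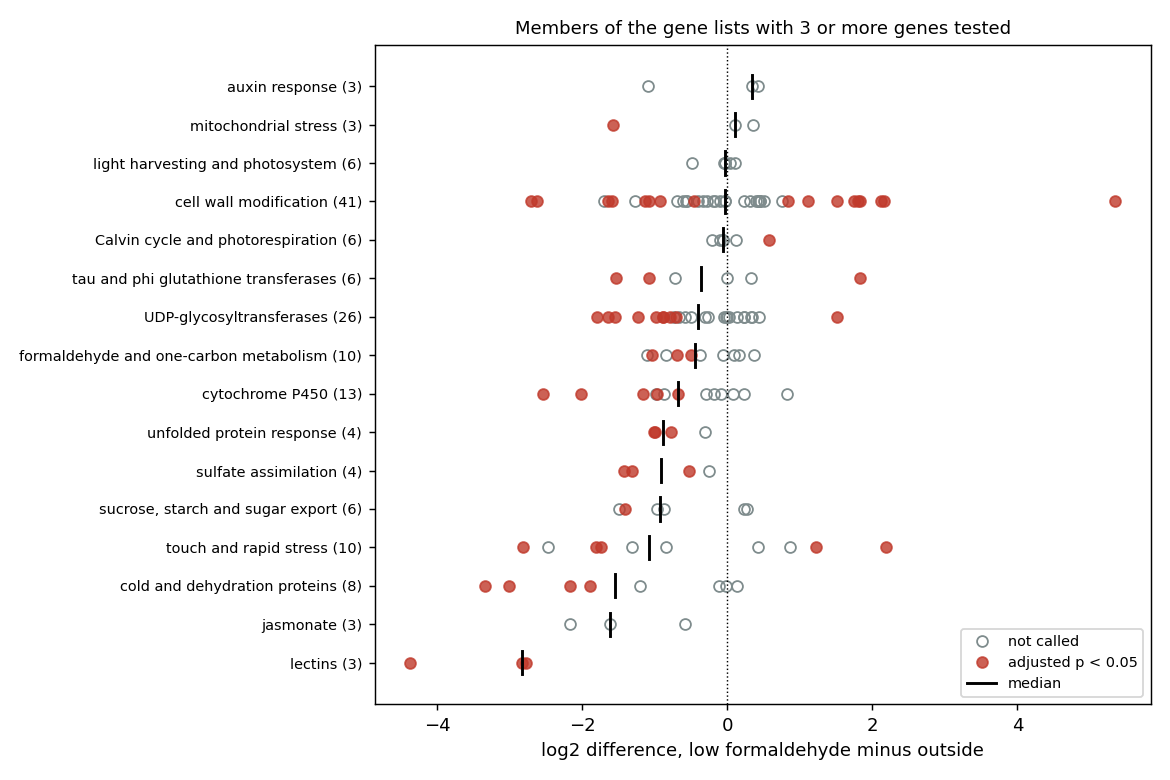
Low formaldehyde minus outside log2 difference of each tested member of the gene lists with at least 3 tested genes, ordered by the list median, with the number of tested genes in brackets. Filled circles passed an adjusted p of 0.05, open circles did not, and black ticks are medians. All 3 lectins lie below -2.7, and the 6 light harvesting genes lie between -0.48 and 0.11.

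Among further genes with a symbol of their own, 1068 of which were tested and 154 (14.4%) were higher and 208 (19.5%) lower, several large changes fell outside these lists, and those given here were chosen after their values were seen. CIL (AT4G25990), named for its likeness to a chloroplast import factor, had 6.37, 5.88 and 6.46 in low formaldehyde plants, 2.93, 2.66 and 2.83 in clean air plants and 2.11, 2.14 and 3.45 in outside plants. CIL differed from outside by 3.66 ± 0.53 (adjusted p = 0.00072) and was at least 4.70-fold higher, since all outside values were below 4. ALN, for allantoinase, which opens the purine breakdown product allantoin, had 8.82, 8.65 and 8.57 in low formaldehyde plants, 7.94, 7.62 and 6.65 in clean air plants and 6.39, 6.91 and 6.14 in outside plants. ALN differed from outside by 2.20 ± 0.33 (adjusted p = 0.00085). BZIP61 and BZIP53, transcription factor genes of the basic leucine zipper family, had differences of 2.62 ± 0.60 and 1.13 ± 0.12 (adjusted p = 0.0068 and 0.00020). Of the 5 tested genes of that family these 2 were higher and BZIP28 and BZIP60 lower. QQS, an Arabidopsis gene that affects leaf starch, had 6.53, 6.93 and 6.01 in low formaldehyde plants, 9.10, 9.23 and 10.35 in clean air plants and 10.84, 7.95 and 8.59 in outside plants. QQS differed from outside by -2.64 ± 0.61 (adjusted p = 0.0074). TET3, a tetraspanin gene, had 7.82, 8.28 and 6.66 in low formaldehyde plants, 9.41, 10.06 and 10.15 in clean air plants and 10.43, 10.11 and 9.35 in outside plants. TET3 differed from outside by -2.38 ± 0.46 (adjusted p = 0.0030). For CIL, QQS and TET3 the low formaldehyde plants stood apart from clean air and outside plants, which overlapped. ZIP9, a zinc transporter gene, had 2.33, 2.37 and 2.37 in low formaldehyde plants, 2.37, 7.11 and 5.99 in clean air plants and 6.50, 4.31 and 7.78 in outside plants. It was at least 4.59-fold lower than outside (adjusted p = 0.018), a call lost without outside plant 1 (0.051) or 3 (adjusted p = 0.063). Clean air plant 1 lay as low as the low formaldehyde plants, and no difference from clean air was called (-2.80 ± 1.07, adjusted p = 0.080).

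By the calls against and in clean air plants, 2 sets of genes were drawn up. In the first, low formaldehyde plants differed in the same direction from outside and from clean air plants. Its 6 largest each way, ranked after values below 4 were raised to 4, are AT2G41990, AT4G21870, XTH16, EXO, ULT1 and PPR596 among the rises and AT1G76960, ZW9, AT1G11210, AT1G51090, AT1G52000 and AT1G30250 among the falls. Low formaldehyde minus clean air differences of these 12 were between 1.45 and 5.26 for the rises and between -5.27 and -2.31 for the falls. The clean air minus outside difference was called for PPR596 (1.91 ± 0.29, adjusted p = 0.010) and for none of the other 11. AT1G11210 had 5.45, 4.80 and 2.87 in low formaldehyde plants, 5.05, 8.49 and 10.09 in clean air plants and 9.35, 10.44 and 7.98 in outside plants, the clean air plants overlapping both groups (low formaldehyde minus clean air -3.51 ± 1.11, adjusted p = 0.042).

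In the second set, low formaldehyde and clean air plants both differed from outside plants in the same direction and no difference was called between them. Its 6 largest rises by the same ranking are AT1G06720, AT4G27280, AT3G62630, AT1G13810, AT4G02400 and AT1G79150. AT4G27280 had 11.99, 11.52 and 11.56 in low formaldehyde plants, 11.48, 10.14 and 12.03 in clean air plants and 9.54, 9.83 and 9.04 in outside plants. AT4G27280 differed from outside by 2.22 ± 0.39 in low formaldehyde (adjusted p = 0.0017) and by 1.75 ± 0.39 in clean air (adjusted p = 0.037). AT1G06720 had 6.69, 7.22 and 7.08 in low formaldehyde plants, 6.15, 5.94 and 5.79 in clean air plants and 4.63, 3.17 and 4.95 in outside plants, differences of 2.75 ± 0.40 and 1.71 ± 0.40. All 6 rises had a low formaldehyde mean above the clean air mean, by 0.47 to 1.03, differences that did not pass the test. Its 6 largest falls are SIS, AT4G12490, SAL2, AT1G74360, MSRB9 and EXPA16. AT4G12490 had 2.11, 3.36 and 2.11 in low formaldehyde plants, 2.11, 2.44 and 2.43 in clean air plants and 7.24, 7.07 and 7.66 in outside plants, at least 10.0-fold lower in low formaldehyde than outside (adjusted p = 7.7e-05). All chamber plants of this locus were below 4 and all outside plants above 7. The locus thus passed the filter on low values only through the outside arrays, where it was high. Its adjusted p is given as a value only and is no support for the fall. AT1G74360 had 5.11, 3.91 and 4.47 in low formaldehyde plants, 4.50, 4.44 and 4.69 in clean air plants and 7.53, 7.14 and 7.24 in outside plants. AT1G74360 differed from outside by -2.81 ± 0.41 in low formaldehyde and -2.76 ± 0.41 in clean air. Its low formaldehyde minus clean air difference was -0.04 ± 0.41, while that of EXPA16 was 0.71 ± 0.30 (adjusted p = 0.95 and 0.11). A single named gene was called in opposite directions against outside: AT3G50860 had 6.0, 5.70 and 6.07 in low formaldehyde plants, 7.29, 7.23 and 7.13 in clean air plants and 6.41, 6.56 and 6.62 in outside plants, lower than outside in low formaldehyde (-0.61 ± 0.15, adjusted p = 0.0093) and higher in clean air (0.69 ± 0.15, adjusted p = 0.032). Its fall lost the call when arrays were scaled by the spike-ins (adjusted p = 0.065).

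**Figure D5:**
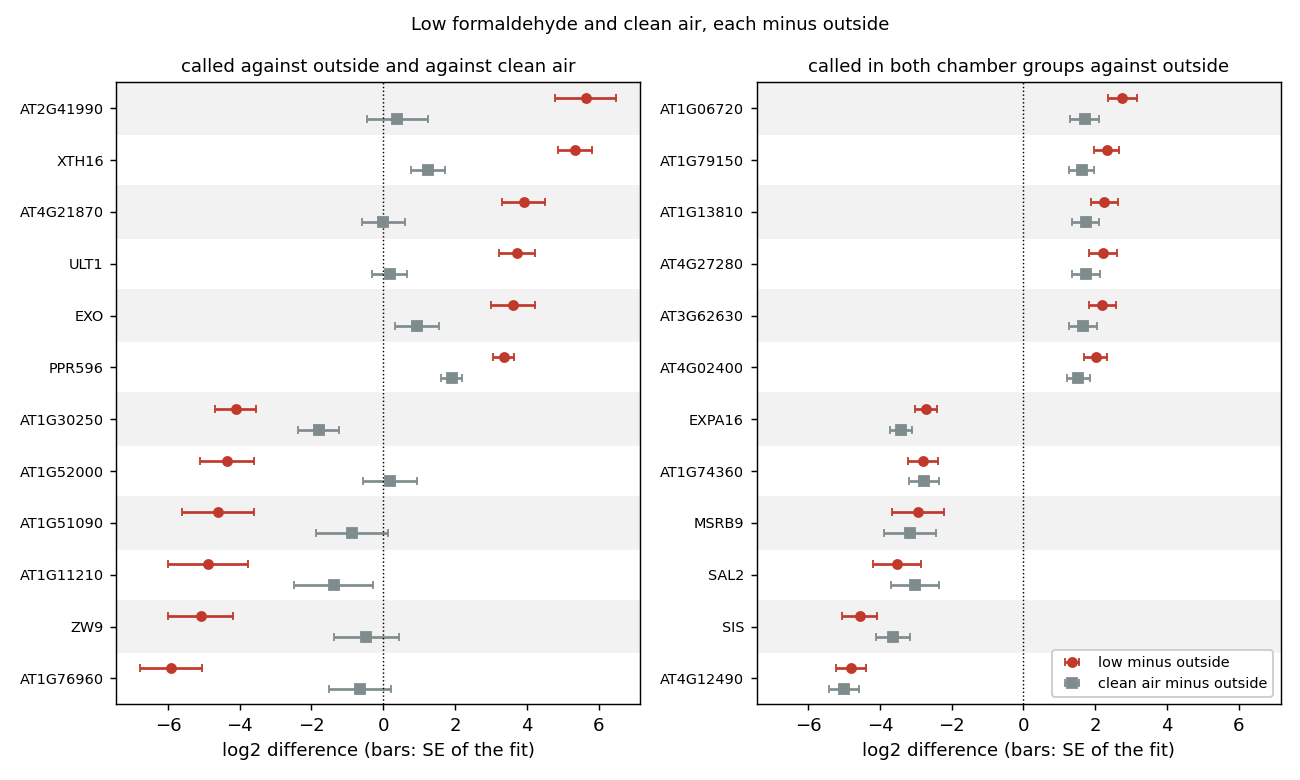
Log2 differences from outside plants for low formaldehyde (circles) and clean air (squares), with the SE of the fit as bars. The left panel shows 12 genes called against both outside and clean air plants and the right panel 12 genes called in both chamber groups against outside with no difference called between the 2 chamber groups. AT4G21870 lies at 3.92 in low formaldehyde and 0.00 in clean air, and AT4G12490 at -4.80 and -5.0.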

How the data were processed

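Expression was measured on 12 Affymetrix ATH1 arrays, 1 plant each, in 4 groups of 3. The authors deposited 1 value per probe set and array, which the submitters' processing notes credit to GCRMA. The deposited values are taken as log2 from their range, since neither scale, version nor options are stated in the sources used here. Of 22810 probe sets, 64 controls were dropped, and the 13874 that exceeded log2 4 on at least 3 arrays were tested. Differences came from a linear model of all 4 groups in limma (version 3.58.1, R 4.3.3), using lmFit, contrasts.fit and eBayes with a mean-variance trend. A Benjamini-Hochberg adjusted p below 0.05 over all 13874 probe sets made a call. The procedure was tested on simulated data. The number of arrays limits the precision, and no 2 arrays held the same values.

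Genes were named only for probe sets with 1 gene in the platform annotation. These were 13513 of the 14016 listed, 13436 of them matched the reference gene table, and 1580 had a symbol of their own. The gene lists hold loci placed by symbol or locus. Named genes were the 12 largest rises and falls without overlap between low formaldehyde and outside plants after values below 4 were raised to 4. To these came up to 3 called members of each list (or up to 2 uncalled ones), the 6 largest each way that clean air plants did or did not share, up to 3 called in opposite directions, and FDH. Members and lists were chosen with earlier results of these data known. Families by symbol, and further genes taken from them, the lists and the genes with a symbol, were chosen after their values were seen. Alternatives were other filters, scalings, subsets of arrays, array weights, a replicate block and 12 fits without 1 array. Plots used matplotlib 3.10.9 (Python 3.11.15).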

Additional observations from a re-analysis of the deposited data

Results flagged for a closer look

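The hybridisation control bioC, a bacterial transcript spiked into the samples and used in no comparison of genes, was 1.82 higher on the log2 scale on low formaldehyde than on outside arrays. It read 9.12 to 9.27 on low formaldehyde arrays, 6.86 to 7.37 on clean air arrays and 7.17 to 7.55 on outside arrays, and 7.59 to 7.94 on high formaldehyde arrays. Whether the difference bears on the gene results was not tested. The alternative scaling by spike-ins used bioB, bioD and cre and not bioC.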

How the results depend on the processing

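Of 75 named genes called in low formaldehyde against outside plants, none changed sign in any alternative, 60 kept the call under all 23 alternatives and 12 lost it in at least 1 fit without 1 array. The count of 4919 called probe sets lay between 3722 and 5017 in the 12 fits without 1 array, with 1875 to 2566 higher and 1844 to 2451 lower. Lower calls outnumbered higher ones without outside plant 2 (2024 higher, 2061 lower) and without low formaldehyde plant 1 (2077 higher, 2136 lower). Differences that were not called changed sign in some fits without 1 array, among them GI (-1.21 to 0.34), JMT (-1.02 to 0.03), LHCB4.2 (-0.11 to 0.08) and LHCB4.1 (-0.06 to 0.11). The count of called probe sets was 4023 with no filter on low values, 4516 with the stricter filter at log2 6, 4779 with values below 4 raised to 4, 4956 after quantile normalization, 4992 after median centring, 3757 after scaling by spike-ins, 3768 from the 6 arrays alone, 4461 without the high formaldehyde arrays, 4839 without the trend and 5517 with array weights. At an adjusted p below 0.01 the count was 2564 (1379 higher, 1185 lower), and with at least 2-fold change 2334 (1123 higher, 1211 lower), since both thresholds are stricter. With the replicate number as a block 4769 probe sets were called. The deviations of same-numbered low formaldehyde and outside plants correlated at r = 0.20, 0.013 and 0.27. Low formaldehyde plants 1 and 3 correlated best with the outside plant of the same number, and plant 2 with outside plant 1 (r = 0.11). Deviations from the mean of so few plants depend on each other, so whether same-numbered plants belong together cannot be told. CYP71B28 lost its call only under scaling by spike-ins, and AT4G17260, UGT71C5, ndhK and psaI only in the fit of the 6 arrays alone. Probe sets at or below 4 are close to background, and their changes are bounds.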
